A study of Mus musculus with 5 samples.

Results

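The keratins Krt7, Krt8, Krt18, Krt19, Krt20 and Krt23 and the ductal transcription factor Sox9 were followed by RNA-seq in freshly isolated mouse acinar cells, which make and secrete the digestive enzymes. They were chosen by symbol and made up 7 of the 23284 gene symbols counted in each library. The knockouts were 3 libraries of Arid1afl/fl;p48-Cre animals. Their floxed Arid1a, which encodes a subunit of the SWI/SNF chromatin remodelling complex, is recombined by Cre. The controls were 2 libraries of p48-Cre animals, so both groups carried the Cre, which is driven by the p48 (Ptf1a) locus of pancreatic progenitors and acinar cells. All mice were C57BL/6 and 8 weeks old, and the dispersed cells of both groups rested in serum-containing medium before RNA was taken. No label says whether each library came from its own animal, so the p-values reflect the spread among these 5 libraries alone, and that spread may be technical. In libraries of whole cell preparations, fewer cells of a type and less RNA per cell cannot be told apart.

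Keratins are intermediate filament proteins that assemble as pairs of a type I and a type II chain. Krt8 (type II) and Krt18 (type I) form the filaments of simple epithelia, acinar cells included. Krt7 (type II) and Krt19 (type I) are added in duct cells, and acinar cells that take on a duct-like form in injury or early neoplasia gain Krt19. Krt20 and Krt23 are further type I keratins, Krt20 being best known from intestinal epithelium. Sox9 is a transcription factor of pancreatic progenitors and adult ducts that is switched on again in acinar-to-ductal metaplasia. Setting knockout against control libraries asks whether acinar cells that lack Arid1a differ in these transcripts.

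The groups differed in depth before any gene was considered. Without the ribosomal precursor Rn45s and Lars2, which together took most of the control counts, the knockout libraries held 3155357, 3568906 and 3345121 counts, against 67514 and 72006 in the controls. CPM below is the number of counts of a gene per 1000000 of these totals. A count of 3, taken as the floor of detection, equalled at most 0.951 CPM in a knockout library, against 44.4 and 41.7 CPM in the controls and 21.5 CPM over both controls together. Depth separated the libraries as genotype did, so genotype and library quality cannot be told apart in what follows. Arid1a itself had 44, 121 and 42 counts in the knockouts against 0 and 3 in the controls, too few to check the genotype, and its count also covers exons outside the deleted part. The labelled cell type was borne out by its products, since 39 acinar genes took 78.2%, 66.8% and 86.9% of the remaining counts in the knockouts, against 66.2% and 69.8% in the controls.

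The sequences just upstream of the keratin genes are shown because Krt8 and Krt18 had higher means in the knockouts and Krt7 a lower one. Krt8 and Krt18 lie near each other on chromosome 15 and are transcribed away from each other. The RefSeq promoter table (build GRCm38.p6, a later build than the mm9 named for the counts) held 5 of the 7 genes. It gives the following 250 bases before the start of transcription, 5′ to 3′ along the transcribed strand. Capitals mark a match to a TATA box (TATAAA, forward strand) or, on either strand, to a GC box (GGGCGG), an AP-1 site (TGANTCA) or a SOX site (ACAAAG or ACAATG).
Krt8, chr15:102004343-102004592, minus strand: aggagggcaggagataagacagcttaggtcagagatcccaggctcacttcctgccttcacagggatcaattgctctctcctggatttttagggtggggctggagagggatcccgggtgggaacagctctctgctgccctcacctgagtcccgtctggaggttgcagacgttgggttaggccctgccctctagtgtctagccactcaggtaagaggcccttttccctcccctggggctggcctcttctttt
Krt18, chr15:102027966-102028215, plus strand: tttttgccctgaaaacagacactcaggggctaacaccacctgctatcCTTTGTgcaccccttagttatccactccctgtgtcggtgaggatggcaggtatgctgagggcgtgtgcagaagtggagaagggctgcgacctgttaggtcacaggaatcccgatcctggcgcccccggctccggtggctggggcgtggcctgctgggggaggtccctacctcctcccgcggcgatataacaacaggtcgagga
Krt7, chr15:101412153-101412402, plus strand: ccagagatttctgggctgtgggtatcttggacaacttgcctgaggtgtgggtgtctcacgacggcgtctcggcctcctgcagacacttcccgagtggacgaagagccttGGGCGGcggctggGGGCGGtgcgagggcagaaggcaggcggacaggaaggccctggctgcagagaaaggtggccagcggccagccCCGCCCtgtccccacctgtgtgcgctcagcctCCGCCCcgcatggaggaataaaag
Krt7 had 4 GC box matches, and 33.0% of 32536 windows of this length upstream of mouse genes held at least 1. Krt18 had 1 SOX match, which 25.0% of windows hold. Krt8 held none of the motifs searched. None of the 3 windows shown matched the AP-1 site, which 6.73% of windows hold, or the TATA box, which 7.55% hold. Krt20, not shown, had a TATA match and Krt23 a SOX match. A match describes the letters only.

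None of the 7 genes was called different between knockout and control libraries at an adjusted p under 0.05 (edgeR quasi-likelihood test, Benjamini-Hochberg over 8291 genes). All 7 passed the filter on low counts, Krt20, Krt23 and Sox9 through the knockouts alone. Over all genes tested, 16 were called higher (0.193%) and 133 lower (1.60%), or 1.80% in either direction. At an unadjusted p under 0.05, edgeR had 1072 genes, Krt8 being the only 1 of the 7 among them. DESeq2 called Krt8, Krt18 and Krt19 higher, in a test that called 7.36% of all genes higher and 3.63% lower. The median log2 fold change over all genes tested was 0.22 with edgeR and 1.42 with DESeq2.

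**Figure D1:**
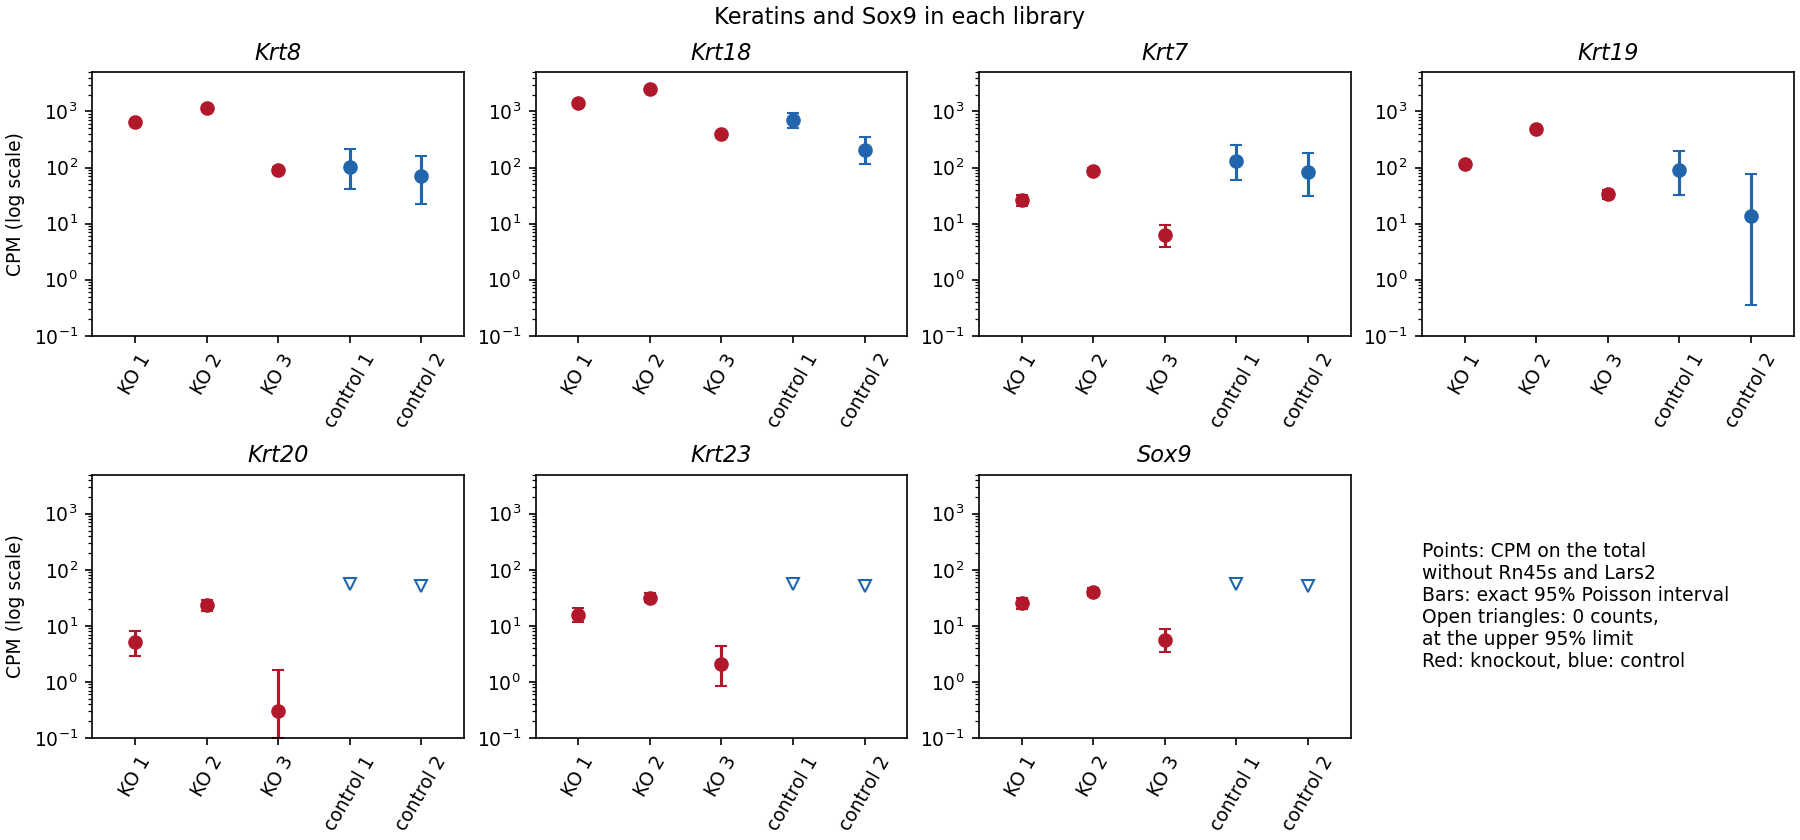
CPM of the 7 genes in each library on a log axis, with exact 95% Poisson intervals for counting error; open triangles stand at the upper limit of a library with 0 counts. Krt8 and Krt18 reach 1135 and 2509.7 CPM in knockout 2, while the 3 genes without a control count lie below the upper limits of both controls in every knockout.

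Krt8 and Krt18, the pair of simple epithelia, were the most abundant of the 7 genes in the knockouts. Krt8 had 647, 1135 and 90.0 CPM in the knockout libraries, against 104 and 69.4 CPM in the controls. Knockouts 1 and 2 lay above both controls, and knockout 3 lay between them. Krt8 averaged 624 ± 523 CPM in the knockouts (SD, n = 3) and 86.6 ± 24.2 CPM in the controls (SD, n = 2). Its log2 fold change was 2.85 ± 1.12 (SE), with an edgeR adjusted p of 0.181. The controls held 12 Krt8 counts in all, where the knockout share would have given 88.6. The ratio of pooled shares was 7.38, with an exact 95% interval of 4.22 to 14.3 that covers counting error only. Of the 50-base words in the Krt8 transcript, 29.7% recur in other genes, chiefly the pseudogene Krt8-ps, which is no row of the tables, so the Krt8 count is uncertain. For each of the other 6 genes that share was under 1%.

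Krt18 had 1415, 2509.7 and 394 CPM in the knockouts, against 696 and 208 CPM in the controls. Again knockouts 1 and 2 stood above both controls and knockout 3 between them. The log2 fold change was 1.67 ± 0.89 (SE; adjusted p = 0.416, edgeR), and the ratio of pooled shares was 3.29 (exact 95% interval 2.57 to 4.30). Relative to transcript length, Krt18 exceeded its partner Krt8 in every library. The ratio of CPM per kilobase was 2.98, 3.01 and 5.96 in the knockouts, and 9.15 and 4.09 in the controls, so the groups overlapped.

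Krt7, the ductal type II keratin, was the 1 gene of the 7 whose mean was lower in the knockouts. It had 26.3, 86.9 and 6.28 CPM in the knockouts, against 133 and 83.3 CPM in the controls. Knockouts 1 and 3 lay below both controls, and knockout 2 lay just above control 2. The means were 39.8 ± 42.0 CPM in the knockouts (SD, n = 3) and 108 ± 35.3 CPM in the controls (SD, n = 2). The log2 fold change was -1.44 ± 1.28 (SE; adjusted p = 0.589, edgeR) and stood at -0.04 with TMM factors computed without Rn45s and Lars2. The median over all genes was 0.22 in the first of these fits and 1.93 in the second, so Krt7 lay below it in both. The controls held 15 Krt7 counts in all, where the knockout share would have given 5.74, and the ratio of pooled shares was 0.382 (exact 95% interval 0.229 to 0.690). The annotation places a gene on the opposite strand over Krt7 and another over Krt8. The library kit does not mark strand, so reads of these genes cannot be separated from theirs.

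Krt19, the ductal type I keratin, had 113, 491 and 33.5 CPM in the knockouts, against 88.9 and 13.9 CPM in the controls. Those control values stand for 6 counts and 1 count. Knockout 3 lay between the controls and knockout 2 far above every other library. The means were 213 ± 245 CPM in the knockouts (SD, n = 3) and 51.4 ± 53.0 CPM in the controls (SD, n = 2). The log2 fold change was 2.06 ± 1.26 (SE; adjusted p = 0.497, edgeR), and without knockout 2 it was 0.53. The ratio of pooled shares was 4.40 (exact 95% interval 2.13 to 11.0).

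The simple-epithelial and the ductal pair were then set against each other. Krt8 and Krt18 together had 2062, 3645 and 484 CPM in the knockouts, against 799.8 and 278 CPM in the controls. Krt7 and Krt19 together had 139.8, 578 and 39.8 CPM in the knockouts, against 222 and 97.2 CPM in the controls. The ductal pair therefore made up 6.35%, 13.7% and 7.60% of the counts of these 4 keratins in the knockouts, against 21.7% and 25.9% in the controls. The groups did not overlap, with means of 9.21% ± 3.93 in the knockouts (SD, n = 3) and 23.8% ± 2.96 in the controls (SD, n = 2). The exact binomial intervals of the controls, 12.7% to 33.3% and 11.1% to 46.3%, nevertheless reached below the value of knockout 2. The difference in the share was -14.6 percentage points in counts, -13.8 per kilobase of coding sequence and -5.79 per kilobase of transcript. On the transcript scale the shares were 5.63%, 12.5% and 6.65% in the knockouts, against 14.2% and 13.9% in the controls. Knockout 2 thus came close to the controls there. The log2 ratio of the mean CPM of the ductal pair was 0.66, and -0.83 without knockout 2. No test was made of this share, because it is a score over genes chosen with the data known.

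The difference in that share lay within the type II pair. Krt7 took 3.91%, 7.11% and 6.52% of the counts of Krt7 and Krt8 in the knockouts, against 56.3% and 54.5% in the controls. The highest upper limit among the knockouts was 9.80%, and the lowest lower limit among the controls was 23.4% (exact 95% binomial intervals). The control values rest on 9 of 16 and 6 of 11 counts. Per kilobase of transcript, the ratio of Krt7 to Krt8 was 0.0195, 0.0366 and 0.0334 in the knockouts, against 0.615 and 0.574 in the controls. Per kilobase of coding sequence that ratio was 0.0436, 0.0821 and 0.0748 in the knockouts, against 1.38 and 1.29 in the controls. Whether Krt7 or Krt8 stood higher in the controls thus depended on the length used. Within the type I pair the groups overlapped. Krt19 took 7.42%, 16.4% and 7.84% of the counts of Krt18 and Krt19 in the knockouts, against 11.3% and 6.25% in the controls.

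**Figure D2:**
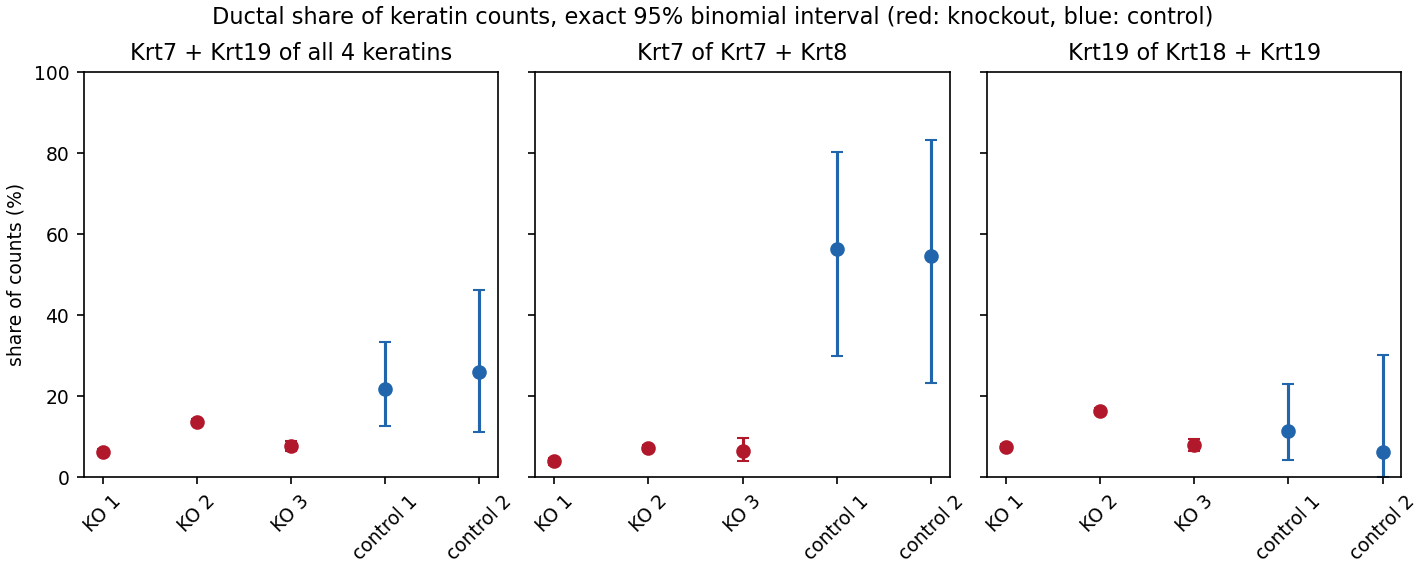
Share of keratin counts (%) taken by the ductal keratins in each library, for all 4 keratins, the type II pair and the type I pair, with exact 95% binomial intervals. Krt7 takes under 10% of its pair in every knockout and over 50% in both controls, whereas the Krt19 shares of the groups overlap.

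Other keratins showed how low counts in the controls behaved. Of 45 further keratin symbols, 16 had no count in any library and only Krt17 passed the filter on low counts. Control 2 held 29 counts of these keratins over 4 genes, namely 10 of Krt71, 8 of Krt76, 7 of Krt75 and 4 of Krt82, against 2 counts in control 1. Krt71 and Krt75 are keratins of the hair follicle. The 3 knockout libraries together had 1 count of Krt71 and none of Krt75, at far greater depth. In control 2 the counts of Krt71 and Krt76 thus exceeded those of Krt7 (6), Krt8 (5) and Krt19 (1). What part reads of that kind had in the control counts of the 7 genes was not tested.

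Krt20, Krt23 and Sox9 had no count in either control. Krt20 had 16, 84 and 1 counts in the knockouts, or 5.07, 23.5 and 0.299 CPM. Krt23 had 50, 114 and 7 counts, or 15.8, 31.9 and 2.09 CPM. At the pooled knockout share the controls would have held 1.40 counts of Krt20 and 2.37 of Krt23, both under the floor, so no fold is given. Sox9 had 81, 143 and 19 counts, or 25.7, 40.1 and 5.68 CPM, and averaged 23.8 ± 17.3 CPM (SD, n = 3). At its own pooled knockout share the controls would have held 3.37 counts of Sox9, and the exact 95% interval of the pooled ratio reached down to 0.906, so no fold is given for Sox9 either. At this depth no difference was called for these 3 genes (adjusted p = 0.582, 0.537 and 0.479 for Krt20, Krt23 and Sox9, edgeR). Over the alternatives the adjusted p of Sox9 ran from 0.0511 (DESeq2) to 0.9998 (limma-voom). All 3 are among the genes whose groups do not overlap with the knockouts higher, as are 35.6% of all genes tested. None of the 7 genes lay below both controls in every knockout, as 11.2% of genes did.

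Within the knockout group all 7 genes had their highest CPM in knockout 2, their middle value in knockout 1 and their lowest in knockout 3. That order held for 77.1% of all genes tested, and it is the reverse of the acinar share of the counts. The highest value exceeded the lowest 12.6 times for Krt8, 6.37 times for Krt18, 13.8 times for Krt7, 14.7 times for Krt19, 15.3 times for Krt23, 7.05 times for Sox9 and 78.7 times for Krt20. The median over all genes with a count in each knockout was 4.27. With the acinar genes taken out of the totals, these ratios were 4.96 for Krt8, 2.50 for Krt18, 5.44 for Krt7, 5.77 for Krt19, 6.00 for Krt23, 2.77 for Sox9 and 30.9 for Krt20, beside a median of 2.27. The change of totals divides the ratio of knockout 2 to knockout 3 by the same factor for any gene. All 7 genes kept the order on that scale, where 43.7% of genes have it. Immediate-early genes, which dissociation of tissue also induces, followed the same order in 8 of 8 members. Their sum was 2901 CPM in knockout 1, 6389 CPM in knockout 2 and 339 CPM in knockout 3, against 1244 and 611 CPM in the controls, and their part in the spread of the keratins was not tested.

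**Figure D3:**
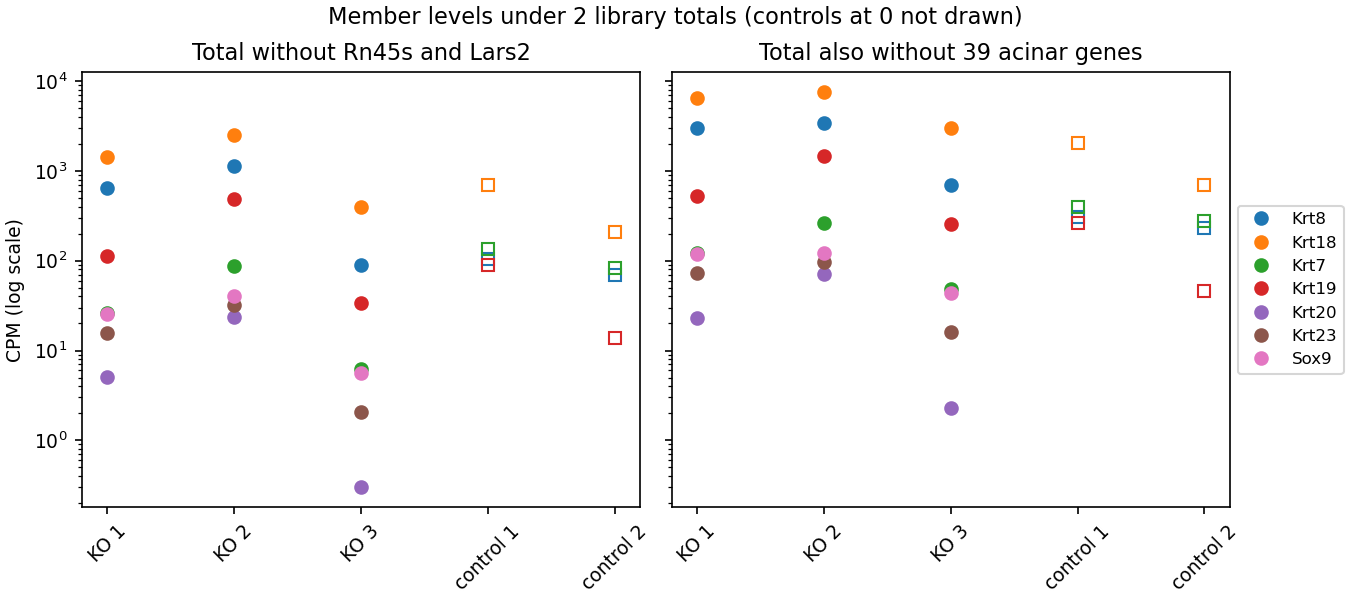
CPM of the 7 genes on a log axis, relative to the total without Rn45s and Lars2 and to the total also without 39 acinar genes; filled circles are knockouts and open squares controls. The gap between knockouts 2 and 3 narrows on the second scale by the same factor for any gene, for Krt18 to 2.50 times. Each of the 7 genes keeps knockout 2 highest and knockout 3 lowest.

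Ordered by CPM per kilobase of transcript and averaged over the knockouts, Krt18 stood first with 1002 ± 736, before Krt8 with 319 ± 267 and Krt19 with 135 ± 155 (SD, n = 3). Krt23 had 10.6 ± 9.55, Krt7 9.73 ± 10.2, Sox9 5.76 ± 4.18 and Krt20 5.00 ± 6.37. Each gap between neighbours in this order was smaller than the SD of the higher gene, an SD over libraries in which all 7 genes rose and fell together. Within each knockout Krt18 stood above Krt8, Krt8 above Krt19, and Krt19 above the other genes, whose order varied. In the controls Krt18 had 315 ± 240, Krt8 44.2 ± 12.4, Krt19 32.6 ± 33.6 and Krt7 26.5 ± 8.63 CPM per kilobase (SD, n = 2), and the other 3 genes were at 0. The transcript length used for Krt7, 4094 bases, is far above its coding length of 1371 bases, so its place in these orders depends on the transcript model.

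Other markers of the duct lineage gave no call either, with 0 of 12 tested duct markers higher and 0 lower. The list summed to 4514 to 9091 CPM in the knockouts, against 1736 to 2859 CPM in the controls. Most of it in each library was Clu, the secreted chaperone clusterin, with 6188, 8078 and 4237 CPM in the knockouts, against 2163 and 875 CPM in the controls (adjusted p = 0.107, edgeR). Without Clu the other 14 markers summed to 344, 1014 and 277 CPM in the knockouts, against 696 and 861 CPM in the controls. Knockouts 1 and 3 then lay below both controls and knockout 2 above both. Spp1, osteopontin, had 88.4, 324 and 102 CPM in the knockouts, against 444 and 389 CPM in the controls (adjusted p = 0.582, edgeR). Pkhd1, which encodes the ciliary protein fibrocystin of duct cells, had 4.44, 16.5 and 7.17 CPM in the knockouts, against 104 and 194 CPM in the controls. Among the 12 duct markers tested, 2 lay below both controls in every knockout, Spp1 and Pkhd1, and 2 lay above both. Over all genes these shares were 11.2% and 35.6%. The median log2 fold change of the 12 was 1.16, above the 0.22 over all genes (edgeR), while single markers lay in both directions. Of the duct list Onecut1, Cftr, Car2, Aqp5 and Bicc1 had no count in either control, while in the knockouts Cftr, the duct chloride channel, had 4, 11 and 9 counts. Notch and YAP genes, which act with Sox9 in the duct lineage, likewise had 0 of 11 called in either direction. Ctgf, a secreted YAP target, had 12.4, 18.8 and 4.48 CPM in the knockouts, against 163 and 83.3 CPM in the controls (adjusted p = 0.212, edgeR). Cyr61, another such target, had 161, 324 and 10.5 CPM in the knockouts, against 178 and 83.3 CPM in the controls (adjusted p = 0.880, edgeR).

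Other cells that carry keratins were looked for by their markers. Of 5 mesothelial markers, Upk1b, Wt1 and Lrrn4 had no count in any library and Upk3b had no control count. The list summed to 7.92 to 78.2 CPM in the knockouts, against 27.8 to 88.9 CPM in the controls. Nearly all of it was Msln, mesothelin, with 7.92, 78.2 and 8.67 CPM in the knockouts, against 88.9 and 27.8 CPM in the controls. Among the knockouts, Krt19 and Msln were both highest in knockout 2. Over all 5 libraries Msln was highest in control 1, but the control values of Msln stand for 6 and 2 counts. Of 10 gut epithelial markers, Cdx2, Cdx1, Fabp2 and Tff1 were at 0 throughout, and the sum was 4.48 to 111 CPM in the knockouts, against 59.2 to 97.2 CPM in the controls. The part of these cells in the keratin counts was not tested. None of the markers tested of acinar transcription factors (6), mesothelium (1), gut epithelium (2), islets (7), macrophages (4), lymphocytes (4), fibroblasts (5), endothelium (6) or adipocytes (2) was called in either direction, and erythroid markers had no count. The absence of a call does not show equal cell content. All 7 endothelial markers had no count in either control, while their sum was 150, 194 and 37.4 CPM in the knockouts. Of the 6 tested, 5 lay above both controls in every knockout and 0 below both, beside 35.6% and 11.2% of all genes. Of 35 acinar genes tested, 6 were called higher and 3 lower, beside 0.193% and 1.60% of all genes. Of the other 18 SOX genes, 7 were tested and none was called. Sox4, another factor of pancreatic progenitors, had 3.17, 5.32 and 3.29 CPM in the knockouts, against 29.6 and 13.9 CPM in the controls (adjusted p = 0.549, edgeR). Those control values stand for 2 counts and 1 count, under the floor of 3. Of the 7 SOX genes tested, 1 lay below both controls in every knockout and 3 above both, beside 11.2% and 35.6% of all genes.

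The genes most like each keratin across the 5 libraries were found among the 878 genes that averaged 50 CPM or more, by the root mean square difference of centred log2(CPM + 1). Krt8 lay nearest to Dnajb1 (0.27), a heat shock cochaperone, Tagln2 (0.27), an actin-binding protein, and Ifrd1 (0.33). Krt18 lay nearest to Rps4x (0.20), Cfl1 (0.30) and Cnbp (0.31), and Krt19 to S100a10 (0.46), Actb (0.51) and Cfl1 (0.54), which are abundant genes of most cell types. Krt7 lay nearest to Anxa1 (0.13), a calcium-dependent phospholipid-binding protein, Thbs1 (0.19) and Prpf8 (0.34). Anxa1 had 16.5, 65.6 and 4.78 CPM in the knockouts, against 104 and 69.4 CPM in the controls. The points of these profiles share library depth, and the likeness describes 5 libraries only.

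**Figure D4:**
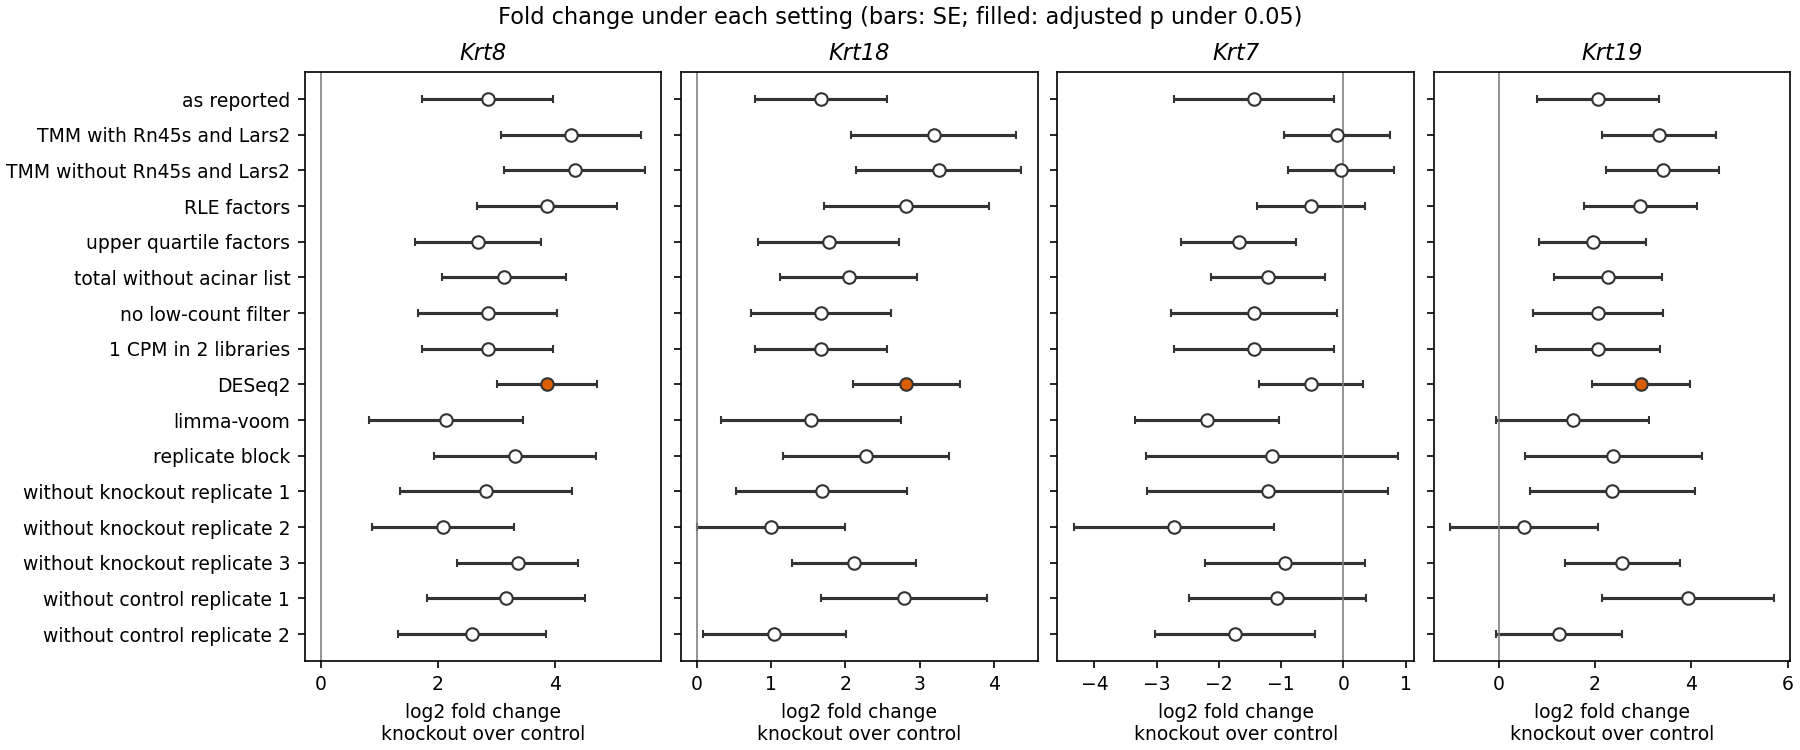
Log2 fold change (knockout over control, with SE) of Krt8, Krt18, Krt7 and Krt19 under each scaling, filter, tool and left-out library; filled points had an adjusted p under 0.05. Krt8 runs from 2.09 to 4.34 and Krt7 from -2.73 to -0.04, and DESeq2 alone gives filled points. The median over all genes, not drawn, also moves between fits, from -0.81 (limma-voom) to 6.06 (without control 1).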

How the data were processed

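Whole-number read counts per gene symbol were deposited by the authors, 1 table per library, unnormalized and without rows for unassigned reads. Per the submitters' processing notes, the build was mm9 and the tools were HTSeq 0.9.1, TopHat2 2.1.1, Cuffdiff 2.2.1.5 and Cuffnorm 2.2.1.2, in roles that are not stated. For the annotation, the strand setting and reads matching several genes, settings were not given in the sources. Libraries were poly(A)-selected with an unstranded TruSeq kit, per the labels' protocols.

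Groups came from the sample titles. Rn45s and Lars2 were dropped, library size was the remaining total with no further factor, and edgeR 4.0.16 in R 4.3.3 fitted group as the only term (filterByExpr, robust glmQLFit, two-sided glmQLFTest). Scaling to this total, in place of TMM factors, follows the rule by which the genes were set. The test was also run on simulated counts, drawn for all libraries from a shared mean profile with a common spread. Changes planted there exceeded the fold changes of Krt7, Krt8, Krt18 and Krt19. That run therefore cannot say how the test behaves for these genes in these libraries. Floors are 3 counts. Exact 95% intervals (Clopper-Pearson for shares and pooled ratios, Poisson for CPM; SciPy 1.17.1) cover counting error only, since reads without molecular identifiers are not independent molecules. Transcript and coding lengths and shared 50-base words came from GENCODE M21, matched by symbol, and were used for no coordinates.

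The genes, the 19 lists, the tests and the alternatives were chosen with earlier results of these data known. The text names the 7 genes, up to 4 called members of each list or else the 2 most abundant, and the 3 genes nearest in pattern to Krt7, Krt8, Krt18 and Krt19. Further duct, keratin and marker genes were named after their values were seen, and not every gene the rule takes is reported. Alternatives were 2 kinds of TMM factors, RLE and upper quartile factors (edgeR), totals without acinar genes, 2 other filters, DESeq2 1.42.0, limma-voom 3.58.1, the replicate number as a block, and each library left out. A single duct marker is not reported here by name.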

Additional observations from a re-analysis of the deposited data

How the results depend on the processing

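No alternative other than DESeq2 called any of the 7 genes, and without each library in turn the number called stayed 0. DESeq2 called 3 higher: Krt8 (log2 fold change 3.86, adjusted p = 0.000559), Krt18 (2.82, adjusted p = 0.00337) and Krt19 (2.95, adjusted p = 0.0334). The median over all genes was 1.42 in that fit. Over the alternatives the highest adjusted p was 0.962 for Krt8 and for Krt18 (edgeR, replicate block) and 1.000 for Krt19 (limma-voom). Krt8, Krt18 and Krt19 kept a positive and Krt7 a negative log2 fold change in all 16 fits, and Krt20 turned to -0.91 with limma-voom. A kept sign is not a kept place among all genes. The median over all genes was 6.06 without control 1 and 5.57 without control 2. Krt8, Krt18 and Krt19 lay below that median in both of those fits. Krt20, Krt23 and Sox9 missed the low-count filter, and so had no value, without knockout 1 and without knockout 2. Krt20 missed it without knockout 3 as well.

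The number of all genes called higher and lower, 16 and 133, was 5 and 27 with TMM factors on all genes, 147 and 71 with TMM factors without Rn45s and Lars2, and 4 and 5 with the replicate block. It was 610 and 301 with DESeq2, and 0 and 43 with limma-voom, where 773 genes had an unadjusted p under 0.05. The genes called lower numbered 81 with RLE factors, 354 with upper quartile factors, 898 without a low-count filter and 388 with 1 CPM in 2 libraries, and those called higher 25 with totals without acinar genes. Leaving out 1 library gave 0 (knockout 1; 161 genes at an unadjusted p under 0.05, edgeR) to 19 genes higher. The genes called lower were then 4 without knockout 1, 48 without knockout 2, 63 without knockout 3, 378 without control 1 and 254 without control 2. The median log2 fold change over all genes, 0.22, was 2.05 and 1.93 with the TMM factors, 1.49 with RLE factors and 1.42 with DESeq2. It was -0.81 with limma-voom, 6.06 without control 1 and 5.57 without control 2. Fold changes in each of these fits are to be read against its own median. The replicate numbers do not pair the libraries by any label, and the deviations of same-numbered libraries correlated at -0.01 and 0.04.

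The ductal share of the 4 keratins differed by -14.6 percentage points, knockout minus control. It was -5.79 per kilobase of transcript, -13.8 per kilobase of coding sequence, -49.6 for Krt7 of the type II pair and reversed to 1.76 for Krt19 of the type I pair, with -16.9 to -12.5 when a library was left out. The log2 ratio of group means was 1.94 for Krt8 and Krt18 and 0.66 for Krt7 and Krt19. Relative to the total of all counts these became 4.07 and 2.83. Leaving out 1 library gave 1.24 to 2.89 for the simple pair and -0.83 (without knockout 2) to 1.38 for the ductal pair. The causes were not tested. Depth in the controls limits every comparison of the 7 genes.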

Other observations

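Proteins that anchor keratin filaments to desmosomes and the cytoskeleton gave no call in either direction among 12 tested members. Their sum was 212, 575 and 67.6 CPM in the knockouts, against 844 and 805 CPM in the controls. Of the members tested, 3 lay below both controls in every knockout and 2 above both, beside 11.2% and 35.6% of all genes. Plec, the linker plectin, had 51.3, 124 and 26.3 CPM in the knockouts, against 430 and 208 CPM in the controls (adjusted p = 0.345, edgeR). Dsp, desmoplakin, had 17.7, 70.0 and 6.88 CPM in the knockouts, against 29.6 and 208 CPM in the controls (adjusted p = 0.537, edgeR).

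Intermediate filament genes other than keratins gave no call among 6 tested members. Vim, the filament protein of mesenchymal cells, had 44.4, 102 and 15.2 CPM in the knockouts, against 252 and 83.3 CPM in the controls (adjusted p = 0.567, edgeR). Lmna, a nuclear lamin, had 154, 325 and 37.7 CPM in the knockouts, against 355 and 69.4 CPM in the controls (adjusted p = 0.891, edgeR). Epithelial junction genes gave no call among 13. The tight junction gene Cldn4 had 124, 443 and 8.07 CPM in the knockouts, against 44.4 and 55.6 CPM in the controls (adjusted p = 0.530, edgeR), with knockout 3 below both controls. Among the 8 immediate-early genes Egr1 was called higher, as were 0.193% of all genes. Egr1 had 335, 987 and 26.9 CPM in the knockouts, against 0 and 13.9 CPM in the controls, where 1 count had been read (adjusted p = 0.0173, edgeR).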
